A study of Mus musculus with 4 samples.

Results

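The genes described here are those of the Reg lectins and of inducible mucosal defence in the small intestine: Reg1, Reg2, Reg3a, Reg3b, Reg3g, Reg4, Pigr, Duox2, Duoxa2 and Nos2. They were found by gene name among the non-control probes of the array, where each of the 10 had 1 probe, out of 28632 gene names. The samples were organoids grown for 1 week from small intestinal crypts of 2 mice, and freshly isolated crypts of the same 2 mice. Organoids are closed epithelial structures, here kept in Matrigel with EGF, R-spondin and Noggin. No source used here gives the mice's strain, age or sex, and no genotype or further treatment is named. For each mouse, organoid RNA in 1 dye and crypt RNA in the other shared an Agilent whole mouse genome array, and a repeat array had the dyes exchanged. The 4 arrays therefore give 2 replicates, and n = 2 mice throughout. The labels name the crypt material as epithelial cells and give no sort.

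Reg proteins are small secreted C-type lectins. In the gut, Reg3b and Reg3g are made by enterocytes and Paneth cells, reach the mucus and bind bacterial surfaces, and their genes are induced by microbes through Myd88 and through interleukin 22 and Stat3. Pigr, the polymeric immunoglobulin receptor, carries dimeric IgA through the epithelium into the lumen. Duox2 is an oxidase that releases hydrogen peroxide, Duoxa2 is the partner it needs to mature and leave the endoplasmic reticulum, and Nos2 is the inducible nitric oxide synthase.

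Reg3b, Reg3d, Reg3a, Reg2, Reg1 and Reg3g lie in this order on chromosome 6 in RefSeq's gene table for GRCm38.p6, with 1 pseudogene between Reg1 and Reg3g. Reg4 lies on chromosome 3. Promoter sequences from RefSeq (GRCm38.p6, 250 bases before to 50 after the gene's start) were found for 9 of the 10 genes, all but Nos2. The promoters of 4 Reg genes of the cluster are shown because Reg3b and Reg3g were both far lower in organoids and Reg3a and Reg1 were not. Capitals mark TATAAA just ahead of the start and, in Reg3b and Reg3g, the run of 29 bases that both share.
Reg3b, chr6:78370635-78370934, + strand: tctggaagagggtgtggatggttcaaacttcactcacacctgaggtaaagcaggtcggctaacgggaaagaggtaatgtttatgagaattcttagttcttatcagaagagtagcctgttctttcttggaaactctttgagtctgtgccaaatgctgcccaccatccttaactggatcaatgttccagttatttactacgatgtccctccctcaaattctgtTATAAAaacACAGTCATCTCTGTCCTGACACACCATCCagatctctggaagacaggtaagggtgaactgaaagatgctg
Reg3g, chr6:78468825-78469124, - strand: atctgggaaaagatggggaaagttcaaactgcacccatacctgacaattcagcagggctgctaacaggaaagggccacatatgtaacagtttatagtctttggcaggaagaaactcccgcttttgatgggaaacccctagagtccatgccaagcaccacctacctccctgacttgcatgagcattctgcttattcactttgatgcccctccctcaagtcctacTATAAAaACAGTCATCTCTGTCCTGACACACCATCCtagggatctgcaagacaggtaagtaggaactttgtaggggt
Reg3a, chr6:78380459-78380758, + strand: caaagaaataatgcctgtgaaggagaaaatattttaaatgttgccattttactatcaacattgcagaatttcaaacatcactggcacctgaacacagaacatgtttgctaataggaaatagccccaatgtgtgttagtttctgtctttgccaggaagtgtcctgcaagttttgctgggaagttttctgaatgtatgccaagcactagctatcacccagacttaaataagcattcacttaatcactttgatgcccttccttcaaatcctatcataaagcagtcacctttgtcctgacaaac
Reg1, chr6:78425733-78426032, + strand: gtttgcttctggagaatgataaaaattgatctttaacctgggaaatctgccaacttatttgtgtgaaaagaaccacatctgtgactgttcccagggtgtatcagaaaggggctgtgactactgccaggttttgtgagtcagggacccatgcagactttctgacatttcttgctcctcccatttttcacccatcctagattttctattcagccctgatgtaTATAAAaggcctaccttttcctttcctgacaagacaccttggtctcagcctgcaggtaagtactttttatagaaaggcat
The shared run covers positions -20 to 9 in both genes, where position 1 is the start and there is no position 0. The other 14 pairs of Reg promoters shared runs of at most 6 to 14 bases, the longest of them between Reg3a and Reg3g. TATAAA began at -29 in Reg3b, -27 in Reg3g and -30 in Reg1, and was not in the window of Reg3a. It occurred on either strand in 5 of the 9 promoters found, against 13.6% of all 32851 promoters in the table. The longest run of Reg3a with Reg3g lay at -10 to 4 in Reg3a and at -57 to -44 in Reg3g. Its longest run with Reg3b lay at 38 to 47 in Reg3a and at -9 to 1 in Reg3b. The window of Reg3a thus ends sooner after the matching bases. At the same distance after the run shared with Reg3g, the Reg3a window reads cataaa where Reg3g reads TATAAA. Whether the annotated start of Reg3a bears on its short runs was not tested. TTCNNNGAA, the pattern bound by STAT proteins, was present in Reg3b at -129 to -121 and in Pigr at 40 to 48, which is 2 of 9 promoters, against 8.3% of all. The NF-kB consensus was present in Reg3g alone of the 9, at -123 to -114, against 4.51% of all promoters. The interferon response element core was in 0 of the 9, against 3.44% of all. Both strands were read for each pattern. The NF-kB match fitted its pattern on both strands at the same positions. Every TTCNNNGAA match must do so, since that pattern reads the same on both strands. A match is a description of the letters and was not tied to binding here.

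The array probes of the family were compared with each other by sequence. The 15 pairs of Reg probes, each probe 60 bases long, shared runs of at most 5 to 7 bases, and all 45 pairs among the 10 genes shared at most 4 to 7. No probe was compared with the transcript of another Reg gene. Whether a probe also binds RNA of another family member was therefore not tested. In mm9, the build of the file headers, the probes of the chromosome 6 genes lie at 78323323 to 78323382 (Reg3b), 78333635 to 78333694 (Reg3a), 78357959 to 78358018 (Reg2), 78378527 to 78378586 (Reg1) and 78416420 to 78416479 (Reg3g). The Reg4 probe spans 98037005 to 98040251 on chromosome 3, a stretch of 3247 bases, so it crosses an intron. The Pigr probe is at 132748041 to 132748100 on chromosome 1. Those of Duox2 and Duoxa2 are at 122108679 to 122108738 and 122128112 to 122128171 on chromosome 2, where the genes are neighbours. The Nos2 probe is at 78773160 to 78773219 on chromosome 11. Exons and untranslated regions were not looked up, since no mm9 annotation was used.

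Across the arrays, 51.7% to 61.9% of non-control spots were well above background in the organoid channel and 54.1% to 67.4% in the crypt channel. Over 15538 genes, which are not independent, the organoid over crypt ratios of both arrays correlated at r = 0.837 in mouse 1 and 0.850 in mouse 2, and the means of both mice at r = 0.767. Ratios below are log2 of organoid over crypt, as the mean of 2 mice with their SD. Levels are normalized log2 intensities in each tissue's channel, given as mouse 1 with organoid RNA in Cy5, mouse 1 in Cy3, mouse 2 in Cy5 and mouse 2 in Cy3. A level is compared within a probe only. A gene passed the test at a Benjamini-Hochberg adjusted p under 0.05 in limma, adjusted over all 15538 genes tested.

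Reg3b, Reg3g, Pigr and Duoxa2 were lower in organoids than in crypts. These are 4 of the 8 genes tested, against 5.49% of all genes tested, and 0 of 8 were higher, against 5.43%. With arrays centred on their medians in place of loess, Reg3b and Reg3g alone of the 8 passed, against 1.44% of all genes, and likewise from the arrays with organoid RNA in Cy3 alone, against 5.84%. The ratio had 1 direction on all 4 arrays in 5 of the 8 (Reg3b, Reg3g, Reg3a, Pigr and Duoxa2), against 47.1% of all genes. In both mice at least 2-fold lower were Reg3b, Reg3g and Pigr, against 2.3% of all genes. Reg2 and Nos2 were too dim to test. In RNA of whole organoids and crypts, fewer cells of a type and less RNA per cell cannot be told apart.

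**Figure D1:**
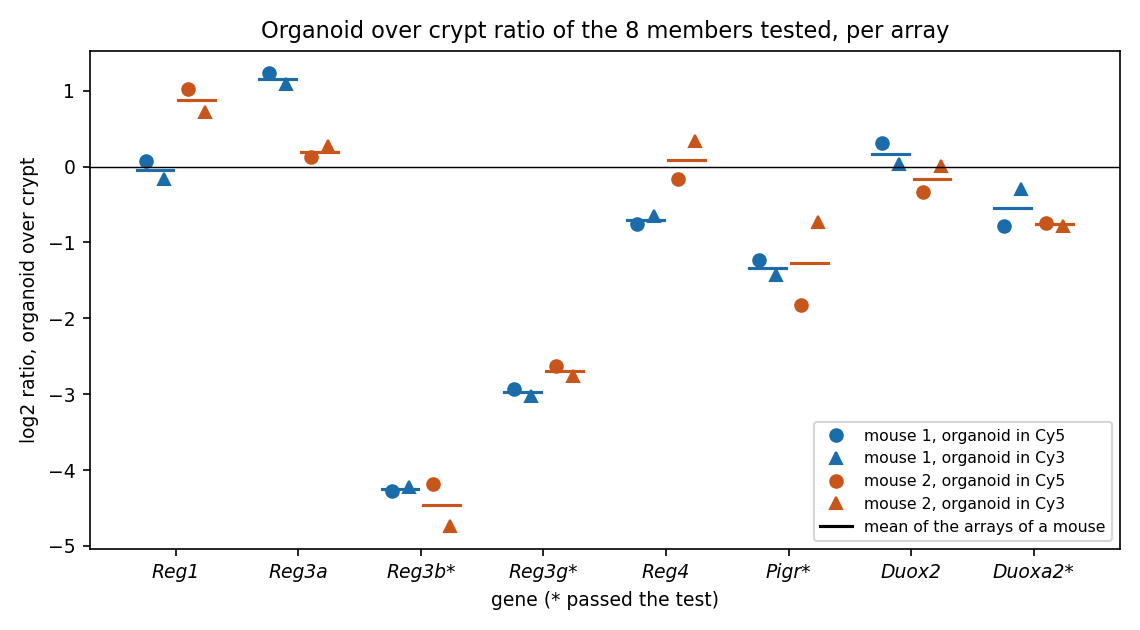
Log2 ratio of organoid over crypt (vertical axis) for the 8 genes tested (horizontal axis), 1 point per array, with the mean of a mouse's arrays as a bar. Reg3b lies between -4.74 and -4.19 and Reg3g between -3.02 and -2.63, whereas Reg1, Reg4 and Duox2 have arrays on both sides of 0.

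Reg3b, a lectin that acts on Gram-negative bacteria, showed the second lowest ratio of all genes tested. Its level was 12.08, 11.73, 13.06 and 12.24 in organoids, against 16.36, 15.96, 17.24 and 16.98 in crypts. The highest organoid channel stood below the lowest crypt channel by several log2 units, so the tissues did not overlap. The share of all genes without such overlap was not counted, here or below, and the channels are repeats of 2 mice. The array ratios were -4.28 and -4.23 in mouse 1 and -4.19 and -4.74 in mouse 2. The mean was -4.36 ± 0.15 (SD, n = 2 mice; limma adjusted p = 0.00121), with a 95% interval of -4.71 to -4.01 before adjustment for the number of genes, as are all intervals below. Reg3b was thus 20.5-fold lower in organoids. All 4 organoid channels were still well above background, so Reg3b RNA remained measurable there.

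Reg3g, the lectin that binds peptidoglycan and kills Gram-positive bacteria, was the other member of the family that fell. Its level was 10.69, 10.65, 11.87 and 11.72 in organoids, against 13.62, 13.67, 14.50 and 14.48 in crypts. Again no organoid channel reached any crypt channel. The array ratios were -2.93 and -3.02 in mouse 1 and -2.63 and -2.76 in mouse 2, a mean of -2.83 ± 0.20 (SD, n = 2 mice; limma adjusted p = 0.00165) with a 95% interval of -3.20 to -2.47. Reg3g was 7.13-fold lower in organoids, at rank 32 from the lowest ratio of all genes tested.

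Both lectin genes were higher in mouse 2 than in mouse 1, in either tissue. For Reg3b the gap of mouse 2 over mouse 1 was 0.74 log2 units in organoids and 0.95 in crypts. For Reg3g it was 1.12 in organoids and 0.84 in crypts. Gaps of this size or more, in either direction, were found in 3.00% of genes in organoids and 0.714% in crypts for Reg3b, and in 0.644% and 1.11% for Reg3g. The median absolute gap over all genes was 0.17 in organoids and 0.13 in crypts. With 1 mouse on each side these gaps have no test, and the mice were on separate arrays.

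Reg3a, a further lectin of the cluster, had higher values in organoids but did not pass the test. Its level was 14.15, 14.04, 13.38 and 13.49 in organoids, against 12.92, 12.96, 13.26 and 13.22 in crypts. Every organoid channel was above every crypt channel, by a wide margin in mouse 1 and a narrow one in mouse 2. The ratio was 1.16 in mouse 1 and 0.20 in mouse 2, a mean of 0.68 ± 0.68 (SD, n = 2 mice; limma adjusted p = 0.156) with a 95% interval of 0.047 to 1.304. The interval of Reg3a lay above 0 and those of Reg3b and Reg3g lay below it, although the 3 genes sit in 1 cluster. The unadjusted p of Reg3a was 0.0396, a value under 0.05 reached by 4294 genes of the 15538.

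Reg1, a lectin linked to tissue regeneration, did not pass the test. Its level was 15.71, 15.60, 16.36 and 16.32 in organoids, against 15.65, 15.77, 15.33 and 15.60 in crypts. In mouse 2 both organoid channels were above all crypt channels, and in mouse 1 the tissues overlapped. The ratio was -0.05 in mouse 1 and 0.87 in mouse 2, with a mean of 0.41 ± 0.65 (SD, n = 2 mice; limma adjusted p = 0.343) and a 95% interval of -0.20 to 1.02. With arrays centred on their medians in place of loess the mean of Reg1 was 0.86, and it did not pass there either.

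Reg4, a secreted lectin known from enteroendocrine and deep crypt secretory cells, also split by mouse. Its level was 12.61, 12.62, 13.14 and 13.55 in organoids, against 13.37, 13.28, 13.30 and 13.21 in crypts. Crypt channels were close together in both mice, and the organoid channels of mouse 1 were lowest and 1 of mouse 2 was highest. The mean ratio was -0.31 ± 0.56 (SD, n = 2 mice; limma adjusted p = 0.432), with a 95% interval of -0.86 to 0.24, and the direction turned with median centring, to 0.0070. Across the family, the ratio of mouse 2 minus that of mouse 1 was 0.92 for Reg1, 0.80 for Reg4 and -0.96 for Reg3a. Gaps at least as large were seen in 3.30%, 5.31% and 2.88% of all genes, and the median absolute gap over all genes was 0.21.

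For these 3 genes the mice differed more in organoids than in crypts. Reg1 was 0.68 log2 units higher in the organoids of mouse 2 than in those of mouse 1, and its crypts differed by -0.24. For Reg4 the gap was 0.73 in organoids and -0.07 in crypts. For Reg3a it was -0.67 in organoids and 0.29 in crypts. The direction of the gap thus varied within the family, and 1 mouse on each side allows no test. Gaps of this size or more, in either direction, were found in 3.82% of genes in organoids and 25.0% in crypts for Reg1. These shares were 3.21% and 71.3% for Reg4, and 4.10% and 17.9% for Reg3a. The median absolute gap over all genes was also larger in organoids, at 0.17 against 0.13 in crypts.

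Reg2, whose protein is closest to Reg1, was well above background in 1 of 4 organoid channels and 2 of 4 crypt channels. Its level was 7.29, 7.40, 7.33 and 7.47 in organoids, against 7.33, 7.39, 7.43 and 7.31 in crypts, with full overlap. No fold is given, since both tissues were at or near background.

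**Figure D2:**
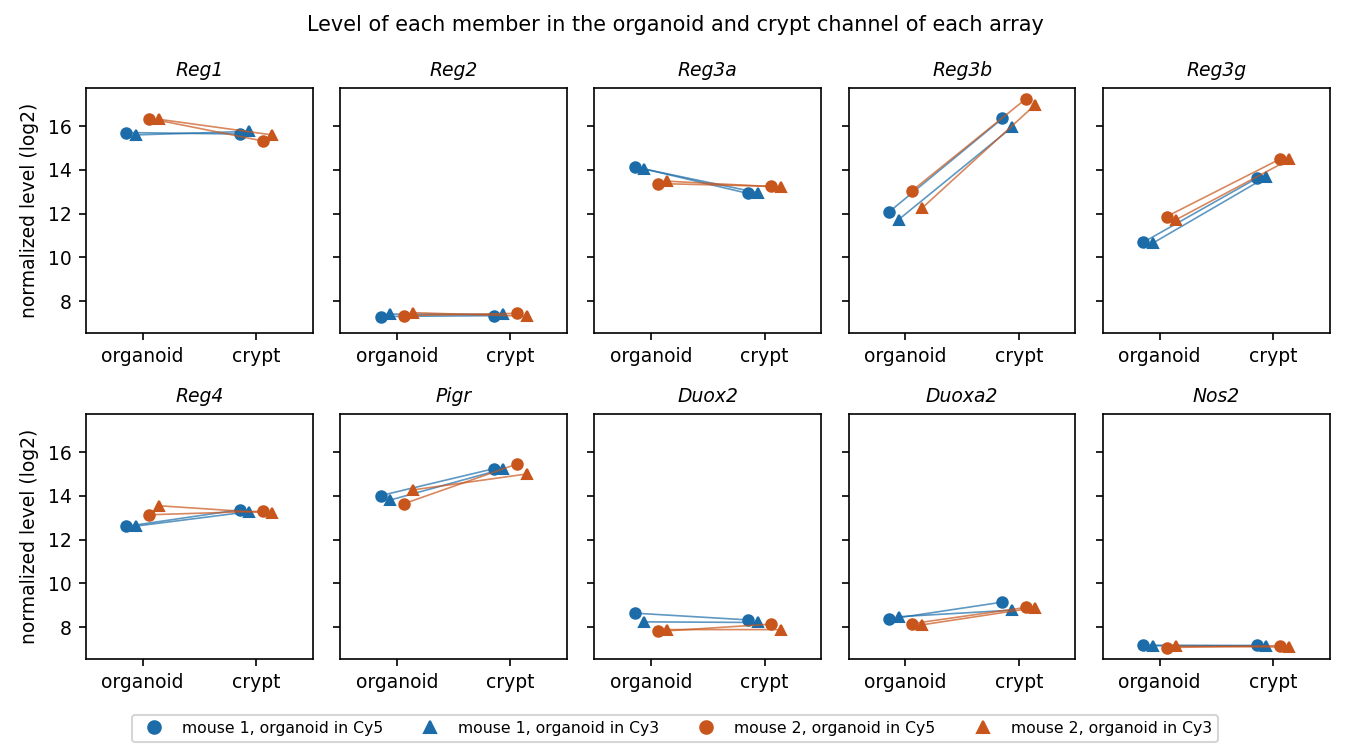
Normalized log2 level of each gene's probe (vertical axis) in the organoid and the crypt channel (horizontal axis) of each array, with a line joining the channels of an array. Reg3b, Reg3g, Pigr and Duoxa2 have all 4 organoid points below all 4 crypt points, whereas those of Reg2 and Nos2 overlap, at or near background. The share of all genes without overlap was not counted.

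Pigr, the IgA and IgM carrier, was lower in organoids. Its level was 14.02, 13.81, 13.64 and 14.28 in organoids, against 15.25, 15.24, 15.46 and 15.01 in crypts. The tissues did not overlap, and the gap was narrowest on the mouse 2 array with organoid RNA in Cy3. The array ratios were -1.23 and -1.43 in mouse 1 and -1.82 and -0.73 in mouse 2. The mean was -1.30 ± 0.04 (SD, n = 2 mice; limma adjusted p = 0.00661) with a 95% interval of -1.63 to -0.98, or 2.47-fold lower in organoids. Each mouse's value is a mean over both dyes, and the array with organoid RNA in Cy5 minus that in Cy3 was 0.20 in mouse 1 and -1.10 in mouse 2, wider than the SD between mice. With median centring Pigr was at -0.91 (adjusted p = 0.305), where the median of all genes was 0.17 in place of 0.02, and with organoid in Cy3 alone it was at -1.08 (adjusted p = 0.0590).

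Of the oxidase pair, Duoxa2 fell and Duox2 did not pass the test. Duoxa2 had levels of 8.36, 8.47, 8.16 and 8.10 in organoids, against 9.14, 8.77, 8.90 and 8.88 in crypts. The groups did not overlap, and the array ratios were -0.78 and -0.30 in mouse 1 and -0.74 and -0.79 in mouse 2. The mean was -0.65 ± 0.16 (SD, n = 2 mice; limma adjusted p = 0.0451) with a 95% interval whose upper end was -0.30, or 1.57-fold lower in organoids. The call is close to the threshold and was lost in 4 of 15 alternative settings, where the ratio was -0.65 to -0.52.

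Duox2 had levels of 8.64, 8.24, 7.80 and 7.88 in organoids, against 8.33, 8.21, 8.13 and 7.88 in crypts. The channels overlapped, with mouse 1 the higher mouse in organoids. The mean was 0.00 ± 0.24 (SD, n = 2 mice; limma adjusted p = 0.996), and its 95% interval of -0.37 to 0.38 shows the size of difference that 2 mice leave possible. The probe was designed on a cDNA clone and not on the RefSeq transcript. The difference between Duoxa2 and Duox2 was not tested.

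Nos2 was printed in 10 spots per array and was not detected. Of 76 spot readings over both channels of all arrays, outlier-marked spots left out, 0 were well above background in the organoid channels and 0 in the crypt channels. No ratio is given for it, since neither tissue was well above background in any channel.

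**Figure D3:**
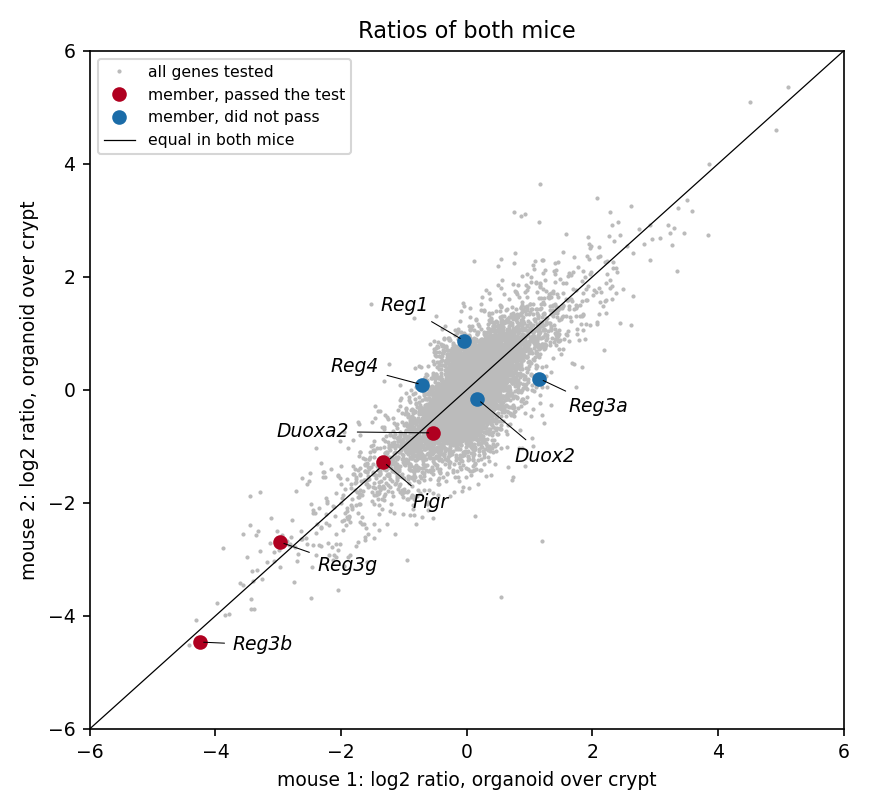
Log2 ratio of organoid over crypt in mouse 1 (horizontal axis) and in mouse 2 (vertical axis), with all 15538 genes tested in grey and the named genes in colour, and the line of equal ratios. Reg3b, Reg3g, Pigr and Duoxa2 lie near the line below 0, whereas Reg1 and Reg4 lie above it and Reg3a below it.

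The genes nearest to each lower gene were taken as the 3 with the smallest Euclidean distance over the 4 array ratios. Nearest to Reg3b were Lct (lactase, distance 0.338), the brush border scaffold gene Pdzk1 (0.960) and Bst1 (1.16). Nearest to Reg3g were the immunoproteasome subunit gene Psmb9 (0.172), the trypsin inhibitor gene Spink1 (0.228) and Cd74, the invariant chain of MHC class II (0.359). Their ratios were -2.77 ± 0.14 for Psmb9, -2.77 ± 0.06 for Spink1 and -2.92 ± 0.29 for Cd74 (SD, n = 2 mice). Nearest to Pigr were the intestinal alkaline phosphatase gene Alpi (0.566), Acsl5 (0.567) and H2-Q10 (0.608). Nearest to Duoxa2 were Sco1 (0.0876), Lman2 (0.106) and Slc50a1 (0.131). The distance rests on 4 arrays of 2 mice.

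Other genes of mucosal defence were also lower, and none passed in the other direction. Of 21 listed, 13 could be tested, 7 fell, 0 rose and 6 did not pass, against 5.49% of all genes lower and 5.43% higher, and the median ratio was -1.42 against 0.02 over all genes. The 7 lower calls became 2 with median centring (list median -0.96) and 3 without the filter on dim probes, which adds the dim genes of the list (list median -0.044). Zg16, a goblet cell lectin that binds Gram-positive bacteria, fell by 3.50 ± 0.07 (log2; SD, n = 2 mice). Its array ratios were -3.23 and -3.88 in mouse 1 and -3.25 and -3.66 in mouse 2. Ang4, a bactericidal ribonuclease of Paneth cells, fell by 2.54 ± 1.05, with -3.28 in mouse 1 and -1.80 in mouse 2. The intelectin gene Itln1 (-1.90 ± 0.50), the phospholipase gene Pla2g2a (-1.74 ± 0.23), the mucin gene Muc13 (-1.57 ± 0.01), the cytokine gene Il18 (-1.80 ± 0.57) and the antibacterial gene Lypd8 (-1.42 ± 0.56) were the others. Sprr2a1, of a family of small proline-rich proteins, stood at 0.60 ± 0.13 (adjusted p = 0.0539). Saa1 was at 0.17 ± 0.44, Fut2 at -0.05 ± 0.02 and Muc1 at 0.09 ± 0.01. Fut2 and Muc1 were dim, with mean organoid levels of 7.69 and 7.78, and Muc1 was well above background in 3 of 4 organoid channels. Retnlb, Lcn2, Saa2, Saa3, S100a8, S100a9, Camp and Slpi were too dim to test.

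Genes of cytokine and microbe sensing had smaller ratios. Of 26 listed, 22 could be tested, 5 fell and 0 rose, against 5.49% of all genes lower and 5.43% higher. The list median was -0.39. Stat3, which carries the interleukin 22 signal, fell by 0.95 ± 0.28 (adjusted p = 0.0232). Also lower were the interleukin 17 receptor subunit gene Il17rc (-1.14 ± 0.06), the NF-kB regulator gene Nfkbiz (-1.04 ± 0.55) and Tlr1, a receptor for bacterial lipopeptides (-1.43 ± 0.58). Those that did not pass included the interleukin 22 receptor subunits Il22ra1 (-0.11 ± 0.02) and Il10rb (-0.34 ± 0.28), the feedback inhibitor gene Socs3 (-0.57 ± 0.06, adjusted p = 0.0559) and the adaptor gene Myd88 (-0.50 ± 0.07, adjusted p = 0.0752). Il22ra1 was dim, with mean levels of 7.86 in organoids and 7.97 in crypts, though well above background in 4 of 4 channels of each. Its ratio near 0 therefore does not show that the tissues were equal. With median centring 0 of the 22 passed, where 224 genes in all passed, and the list median was -0.23. The 5 lower calls were 2 without the filter on dim probes and 3 with organoid in Cy3 alone.

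Among 21 genes of oxidases and nitric oxide, 14 could be tested, 2 fell and 1 rose, against 5.49% of all genes lower and 5.43% higher. The list median was -0.04. This median has no settled size or sign: it was -0.07 in mouse 1 and -0.10 in mouse 2, -0.21 with the scanner's ratios and 0.011 with median centring. Irf1, a transcription factor that acts on the Nos2 promoter, fell by 2.64 ± 0.14 (adjusted p = 0.00167), and Arg2, an arginase that uses the same substrate as Nos2, fell by 1.79 ± 0.38 (adjusted p = 0.00643). Asl, which makes arginine, rose by 0.59 ± 0.01, next to the threshold (adjusted p = 0.049995), and the list had 0 higher calls in 8 of 15 other settings. Duox1 was at -0.042 ± 0.0013, its partner Duoxa1 at -0.02 ± 0.02 and the oxidase subunit gene Cyba at -0.03 ± 0.27. Duox1 and Duoxa1 were each well above background in 4 of 4 crypt channels but only 2 of 4 organoid channels. Their mean organoid levels were 7.48 and 7.58, near background, so their ratios near 0 say little of a difference.

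Of 13 names for antibody transport, 9 were tested and 2 fell, against 5.49% of all genes lower. The list median was -0.20, with -0.05 in mouse 1 and -0.11 in mouse 2, and -0.017 with median centring. The 2 calls were 0 with median centring, without the filter on dim probes and with organoid in Cy3 alone. Jchain, which joins IgA into the dimers that Pigr carries and is made by plasma cells, was well above background in 4 of 4 crypt channels and 0 of 4 organoid channels, and was at least 1.74-fold lower in organoids (adjusted p = 0.0223). Tnfsf13b, a B cell survival factor, fell by 0.75 ± 0.26 (adjusted p = 0.0411). Rab11a and Myo5b, which act in recycling endosomes, were at 0.20 ± 0.10 and -0.34 ± 0.67 and did not pass.

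**Figure D4:**
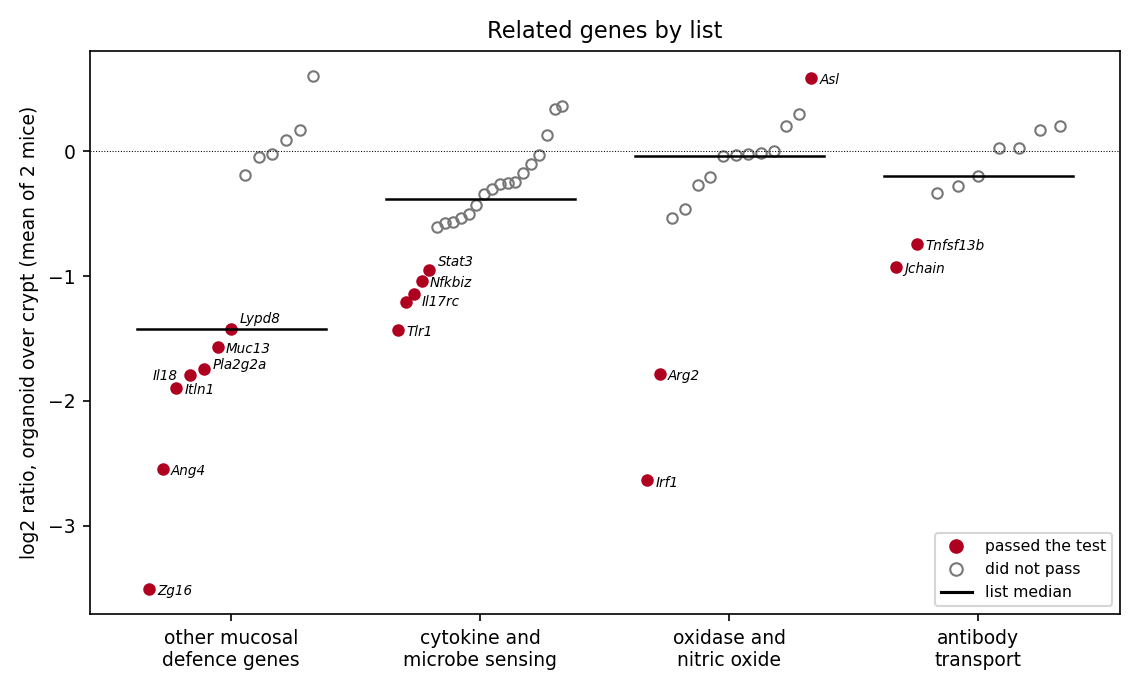
Log2 ratio of organoid over crypt, mean of 2 mice (vertical axis), of each tested gene in 4 lists (horizontal axis), with filled points for genes that passed, labelled where the text names them, and a bar at the list median. The median is -1.42 for other mucosal defence, -0.39 for cytokine and microbe sensing, -0.04 for oxidase and nitric oxide and -0.20 for antibody transport.

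Markers of Paneth cells, enterocytes and goblet cells were lower in organoids, where 5.49% of all genes tested were lower and 5.43% higher. All 7 Paneth markers tested of the 10 listed fell (median -1.79), among them Itln1, Ang4 and Pla2g2a of the defence list, and their summed level, on a linear scale, was 140683 to 404030 in organoids and 805285 to 1215690 in crypts. Of 10 enterocyte markers 9 fell, with sums of 188993 to 289973 in organoids and 671450 to 852568 in crypts. Of 7 goblet markers tested 5 fell, Zg16 among them, with sums of 80132 to 108591 in organoids and 340859 to 438214 in crypts. Of 7 enteroendocrine markers tested 1 fell, and of 4 stem cell markers 2 rose, Lgr5 (2.29 ± 0.05) and Smoc2 (0.95 ± 0.17). Of 7 epithelial markers 1 rose and 2 fell, and all 7 were tested. The part of cell makeup in the ratios above was not tested.

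Leukocyte markers were weaker in organoids: 3 of 13 fell, Cd3g, Gzma and Gzmb, against 5.49% of all genes lower. Sums over the 13 were 2884 to 3501 in organoids and 4490 to 6282 in crypts. Of 4 plasma cell markers tested Jchain fell and Sdc1 rose. Sdc1 was well above background in 4 of 4 organoid channels and Jchain in 0 of 4. Which cells gave the Sdc1 signal was not tested. Of 4 stromal markers tested 1 fell, Acta2 (-0.66 ± 0.01), and 6 were too dim. Because Reg1 and Reg2 are also pancreatic genes, acinar markers were read: 0 of 5 tested passed, with sums of 1755 to 2102 in organoids and 1467 to 1752 in crypts, and the enzyme genes Cpa1, Cpb1, Cela2a, Cela3b, Pnlip, Amy2a5 and Prss2 were too dim to test.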

How the data were processed

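RNA of organoids and crypts of 2 mice was measured on 4 two-colour arrays, 2 per mouse with the dyes exchanged, on 1 slide. The deposited scanner files give intensity per spot and dye, read with Feature Extraction 10.2.1.3 per the file headers (9.5.3 per the submitters' processing notes), with marks for outlier, saturated and well-above-background spots. Their log10 ratios, and the deposited log2 matrix, whose centring by the authors is not stated, served as alternatives. RNA isolation is named differently in the labels' protocols (Trizol) and the design text (RNeasy).

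With limma 3.58.1 in R 4.3.3, intensities were corrected by normexp (offset 50) and loess within each array, control spots at weight 0. Outlier-marked spots were left out, spots averaged per probe, and ratios turned to organoid over crypt. A probe was tested if well above background in all 4 channels of a tissue, and a gene was its brightest tested probe (21923 probes, 15538 genes, 1697 or 10.9% passing). Mouse means were tested against 0 (lmFit, eBayes, two-sided, 1 residual and 4.16 prior degrees of freedom, Benjamini-Hochberg). Levels were set across arrays by Aquantile. Names came from RefSeq accessions for 24844 of 41174 probes and otherwise from the files. Folds for a gene not above background in a tissue are bounds, set against at least the lowest signal well above background on each array. The fit was run on simulated ratios, with noise drawn from its own prior and no difference between the arrays of a mouse. Dye effects and normalization were therefore not tested by it. The number of arrays limits precision, and labels do not give litters or cages. The genes and lists were chosen with earlier results of these data known. Named are the 10 genes, list genes that passed (1 of the sensing list is not reported here), well known others, and the 3 nearest genes. Alternatives changed background, normalization, filters, probe rule, replicate unit, dye and prior.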

Additional observations from a re-analysis of the deposited data

Results flagged for a closer look

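Among 25 genes looked at, 3 had 1 array far from the other 3, by Dixon's criterion for 4 values (0.829), which chance meets in about 1 group in 20. The 4 arrays are repeats of 2 mice. Reg3b was at -4.74 on the mouse 2 array with organoid RNA in Cy3 (gap over range 0.835), in the direction of the other arrays. Duoxa2 was at -0.30 on the mouse 1 array with organoid RNA in Cy3 (0.903). Tnfsf13b was at -0.26 on that same array (0.904).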

How the results depend on the processing

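Reg3b and Reg3g passed in all 15 alternative settings with a test, at -4.48 to -3.96 and -2.95 to -2.54. Pigr passed in 13 (-1.53 to -0.91) and Duoxa2 in 11 (-1.05 to -0.52). Reg1 (0.28 to 0.86), Reg3a (0.67 to 1.01, adjusted p from 0.0602 to 0.423), Reg4 (-0.46 to 0.0070) and Duox2 (-0.012 to 0.12) passed in 0. Median centring in place of loess moved the median of all genes to 0.17 and cut the calls to 224. There Reg4 was at 0.0070, Pigr at -0.91 (adjusted p = 0.305) and Duoxa2 at -0.52 (adjusted p = 0.668), which left 2 lower genes of the 10. With organoid in Cy3 alone 908 genes passed, 2 of the 10 among them, with Pigr at -1.08 (adjusted p = 0.0590) and Duoxa2 at -0.54 (adjusted p = 0.154). Duoxa2 stood at -0.65 without the filter on dim probes (adjusted p = 0.0833) and with a trend and robust prior (adjusted p = 0.0522). Duox2 was at -0.012 with organoid in Cy5 alone. The cause of these shifts was not tested. Calls over all genes were 677 of 28562 without the filter, 3709 when the 4 arrays stood as replicates with a dye effect, and 3080 under a random block for mouse, which treat arrays of a mouse as more than 1 replicate. The other mucosal defence genes had 1 higher call, in place of 0, with no background subtraction, the mean over probes, 4 arrays with a dye effect, the random block, Cy5 alone and the trend prior. Their 7 lower calls were 2 with median centring and 3 without the filter. The sensing genes' 5 lower calls were 8 with no background subtraction, 0 with median centring, 2 without the filter, 11 with 4 arrays, 10 with the random block and 3 with Cy3 alone. The oxidase genes' 1 higher call was 0 with plain subtraction, median centring, the scanner's ratios, the deposited matrix, no filter, outlier marks kept, each probe on its own and Cy5 alone, and their 2 lower calls were 1 with median centring. The antibody transport genes' 2 lower calls were 0 with median centring, no filter and Cy3 alone, and 1 with the filter on all 8 channels and with the mean over probes. Leaving out a mouse leaves the value of the other with no test: -4.46 to -4.25 for Reg3b, -2.97 to -2.69 for Reg3g, -1.33 to -1.27 for Pigr and -0.76 to -0.54 for Duoxa2, -0.05 to 0.87 for Reg1, 0.20 to 1.16 for Reg3a, -0.71 to 0.09 for Reg4 and -0.17 to 0.17 for Duox2. Signal over background limits Reg2 and Nos2, whose ratios say nothing of a difference. List medians ranged over these settings and single mice from -1.55 to -0.044 for other mucosal defence, -0.57 to -0.23 for sensing, -0.21 to 0.011 for oxidases and nitric oxide and -0.31 to -0.017 for antibody transport. Every ratio tested is already paired within a mouse.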
